A study of Mus musculus with 6 samples.

Results

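The 464 circular RNAs described here were exonic circles that spanned 1000 to 50000 bases of genome. At least 10% of the circular plus linear reads listed for each of them were circular. They were taken from 11895 circular RNAs (circRNAs) listed over 6 mouse brain libraries. A circle is listed with its back-splice junction reads, which cross the join of a downstream exon end to an upstream exon start. It is also listed with a number of linear reads, and how these were counted is not stated. Both counts were summed over the libraries that listed the circle. A circle was kept when the summed junction reads came to at least 10 and when the circular share, junction reads divided by junction plus linear reads, was at least 10%. Of 3216 exonic circles of that span with at least 10 reads, the 464 kept came from 386 host genes, and 2752 had a lower share. The number of reads, the share and the span are therefore what chose these circles, and their values are given as a description with no test.

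The study injected healthy male C57BL/6 mice, 14 months old, under the skin once each morning for 14 days. Mice of one group received dihydrotestosterone (DHT), an androgen that cannot be converted to oestrogen, and control mice received medical corn oil. Total RNA of tissue labelled hippocampus was sequenced for circRNAs in 3 libraries of each group, called DHT and oil below. The dose is not given in the labels, and whether a library stands for a single mouse or a pool is not stated. All p-values below therefore refer to variation among libraries that may be technical only.

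Circular RNAs form when the spliceosome joins the donor at the end of an exon to the acceptor of the same or an earlier exon, a reaction called back-splicing that competes with ordinary linear splicing of the same transcript. Without free ends they escape exonucleases and are long-lived, and they are known to be abundant in neurons and to accumulate in the ageing brain. For most host genes the circle is a minor product. That held for most of the circles described here as well, whose median circular share was 15.8%. Their share was a condition of their choice, and whether it reflects splicing, the lifetime of the circle or a low linear level was not tested.

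Splice sites at circle ends are shown first, because every circle here is defined by the pair of sites it joins. RefSeq's table of gene start windows on GRCm38.p6, the only genomic sequence used here, happens to cover 9 distinct ends of these circles. The lines give 5′ to 3′ the 50 intron bases and 25 exon bases around an end, on the strand of the host, with the last intron bases of an acceptor (AG) or the first intron bases of a donor (GT) in capitals.
Gm21992 circle acceptor, chr19:4793985-4794059, minus strand: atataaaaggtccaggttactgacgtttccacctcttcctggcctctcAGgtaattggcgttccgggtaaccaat
Chd9 circle acceptor, chr8:90932199-90932273, plus strand: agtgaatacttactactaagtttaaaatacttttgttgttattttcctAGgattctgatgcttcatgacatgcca
Arhgap5 circle acceptor, chr12:52516029-52516103, plus strand: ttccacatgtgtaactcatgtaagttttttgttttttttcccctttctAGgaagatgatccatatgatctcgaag
Fat1 circle acceptor, chr8:44950146-44950220, plus strand: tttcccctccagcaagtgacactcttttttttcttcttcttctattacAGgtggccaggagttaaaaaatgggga
Dcp1a circle donor, chr14:30484562-30484636, plus strand: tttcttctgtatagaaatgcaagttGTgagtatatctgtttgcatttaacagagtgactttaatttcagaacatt
All 8 acceptors and the 1 donor of these circles in the table had AG and GT at the position the files give. Over circRNAs of every kind, 99 of 99 acceptors and 24 of 24 donors did, so the coordinates match GRCm38, whereas the submitters' processing notes name mm9. Pyrimidines made up a median of 85% of the 20 bases before AG in the 8 acceptors and 75% in 87 acceptors of other circRNAs with 20 bases in the table, a description with no test. The Arhgap5 acceptor, in a gene for a GTPase-activating protein, served 2 of the circles, with 92 and 83 reads.

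A pair of acceptors in Cdc14b, which encodes a dual-specificity phosphatase, lay 33 bases apart and are shown together because the same donor paired with both.
Cdc14b circle acceptors, chr13:64248450-64248549, minus strand: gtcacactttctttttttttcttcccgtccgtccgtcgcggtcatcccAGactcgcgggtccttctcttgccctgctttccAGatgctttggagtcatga
The circle that began at the first AG had 420 reads and a share of 67.5%. Its counterpart that began at the next AG had 37 reads and a share of 13.3%. Per library the first had 71, 76 and 65 reads with DHT and 66, 67 and 75 with oil, and the second had 7, 5 and 5 against 8, 4 and 8. The first circle was thus several times the second in each of the 6 libraries.

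These circles made up 3.90% of the circRNAs listed and held 95993 of 286240 junction reads, or 33.5%. Per library their part of the junction reads was 35.0%, 33.1% and 33.6% with DHT and 32.2%, 33.9% and 33.2% with oil. The reads were concentrated: the circle from Cdr1os took 23.2% of them, the 12 most abundant circles took 39.9%, and 9 circles had at least 1000 reads each. The median circle had 67 reads and spanned 12338 bases, with quartiles of 4744.5 and 23886.8 bases. All 6 libraries listed 317 of the 464, and a single library listed 2.

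**Figure D1:**
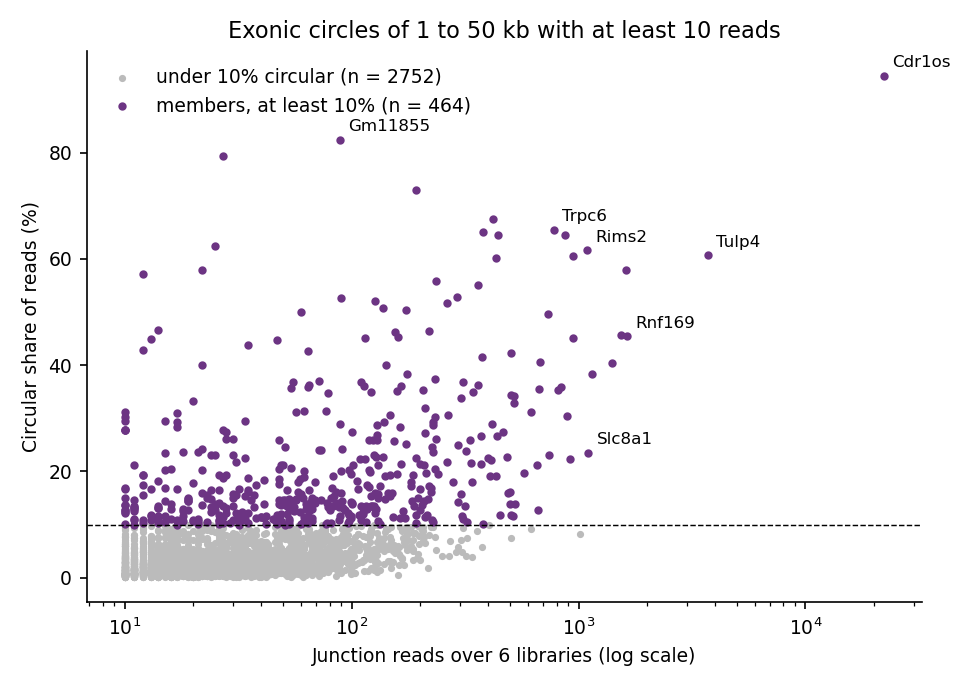
Junction reads summed over the 6 libraries (log scale) against circular share in percent for the 3216 exonic circles of 1000 to 50000 bases with at least 10 reads; purple points are the 464 circles described here (members), grey points the 2752 under a share of 10%, and the dashed line is 10%. The Cdr1os circle stands alone at 22256 reads and 94.4%, and most purple points lie between 10% and 20%.

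The median share was 15.8%, and 215 circles lay under 15%. A share of at least 20% was found for 168 circles and of at least 50% for 26. Circles just inside the share limit, at 10%, came from Kif16b (32 junction and 288 linear reads), Rlf (51 and 459) and Cdk8 (11 and 99). Just outside it were circles of Ppp1cb (402 reads, 9.97%), Dennd1b (196 reads, 9.96%) and Strn3 (131 reads, 9.96%). With 10 reads the circles of Cfap54, Vdac2 and Pnpla3 were kept, and with 9 reads those of Slc41a2, Ranbp17 and a further circle of Cfap54 were not. In all, 16 of the 464 had exactly 10 reads.

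The libraries held 43512 to 55325 junction reads each, and replicate libraries varied beyond counting error. Markers of the labelled tissue were absent in part: of 17 hippocampal marker genes found in the FPKM tables, 5 (Lct, C1ql3, Neurod2, Bhlhe22 and Amigo2) were listed at 0 in every library and 5 averaged over 5 FPKM. Of 11 striatal markers, 9 averaged over 5 FPKM, among them Penk at 75.2 to 151 FPKM, while Drd1 and Gpr6 were listed at 0. An exact 0 in such a table can be a failed estimate. Summed erythroid genes ranged from 347 to 1039 FPKM with DHT and from 193 to 358 with oil, and summed choroid plexus and ependymal genes from 1.69 to 31.4 and from 3.31 to 79.6. In bulk tissue, fewer cells of a type and less RNA per cell cannot be told apart, and the part of these differences in the results below was not tested.

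The most abundant circle, at chrX:61183248-61186174 in Cdr1os, lies at the position of the circRNA usually called Cdr1as or ciRS-7, known for its many binding sites for the microRNA miR-7. It had 4868, 3921 and 3123 reads in the DHT libraries and 3136, 3378 and 3830 in the oil libraries. Its share was between 93.3% and 95.2% in each library, and it made up 99.1% of the reads of the 7 circles listed for that host. After scaling to 1000000 junction reads with TMM factors (normalised reads below), its level was 79477 ± 11150.2 (SD, n = 3) with DHT and 75982 ± 13198 with oil. The groups overlapped.

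Next came the circle of Tulp4, a tubby-like gene, at chr17:6137211-6139156. It had 734, 702 and 659 reads with DHT and 594, 514 and 514 with oil. All 3 DHT libraries stood above all 3 oil libraries after scaling, at 14104 ± 386 and 11819 ± 567 normalised reads (SD, n = 3). Its share was 62.5%, 61.6% and 62.4% with DHT and 63.2%, 56.1% and 56.9% with oil, so the shares overlapped. The log2 fold change of the level, DHT over oil, was 0.25 with a standard error of 0.12 (edgeR, unadjusted p = 0.0525). Levels of the groups did not overlap for 11.1% of all circRNAs tested, a rate that applies to each such circle named below.

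The ubiquitin ligase genes Rnf169 and Ankib1 followed, with nearly equal totals. Rnf169, whose protein binds ubiquitinated chromatin at DNA breaks, gave a circle at chr7:99935162-99955540 with 269, 264 and 253 reads with DHT and 275, 314 and 262 with oil. Both its level, 5298 ± 267 against 6211 ± 593 normalised reads (SD, n = 3), and its share, 41.7%, 44.4% and 44.4% against 48.2%, 47.5% and 46.3%, were lower in every DHT library than in any oil library. The unadjusted edgeR p was 0.151 for the level and 0.398 for the share. Ankib1 (chr5:3747021-3772787) had 283, 298 and 273 reads against 265, 250 and 253, and its groups overlapped in level and share.

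Channel, transporter and adhesion genes supplied 3 of the next circles. Unc79 encodes a subunit of the sodium leak channel complex. Its circle (chr12:102991350-103021876) had 224, 311 and 259 reads with DHT and 307, 244 and 192 with oil, and shares from 35.9% to 50.9%. The circle of Fat3, an atypical cadherin, at chr9:16374949-16378254, had 297, 240 and 249 reads against 212, 227 and 177 and a narrow range of shares, 38.0% to 41.7%. Slc8a1, the sodium-calcium exchanger of the plasma membrane, gave a circle at chr17:81647809-81649638 with 257, 155 and 173 reads against 175, 190 and 156. All 3 overlapped between groups.

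The remaining circles among the 12 most abundant came from Rps6kc1, Rims2, Gm21992, Sergef and Ttc3. The Rps6kc1 circle, of a kinase-like gene, had 221, 202 and 201 reads with DHT and 195, 176 and 153 with oil, and 4203 ± 180.3 against 3809 ± 195 normalised reads (SD, n = 3), with no overlap. Gm21992 is a predicted locus whose circle acceptor, printed above, lies in the start window of Rbm4, a splicing regulator. Its circle had 204, 170 and 172 reads against 151, 132 and 117, and 3669.5 ± 207 against 2907 ± 172 normalised reads. Its share was higher in every DHT library as well, at 68.5%, 59.0% and 67.5% against 57.4%, 57.9% and 50.6%. The unadjusted edgeR p was 0.0644 for the level of this circle and 0.0560 for its share. Circles of Sergef (169, 148 and 158 reads against 213, 135 and 121) and Ttc3 (143, 172 and 144 against 139, 171 and 144) overlapped between groups.

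**Figure D2:**
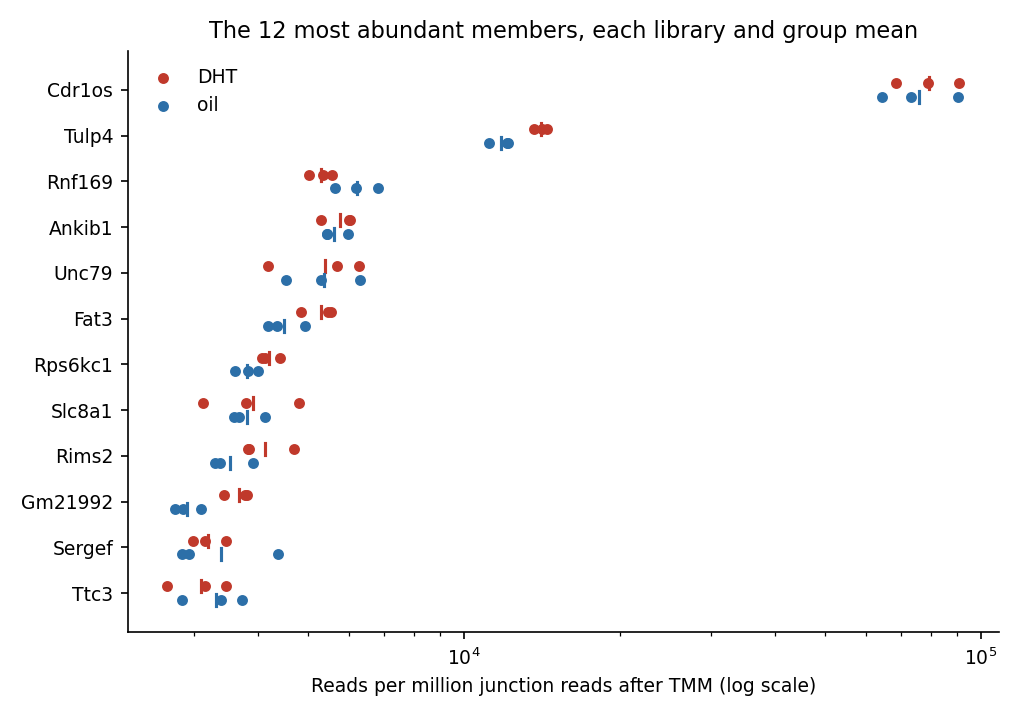
Normalised reads per 1000000 junction reads after TMM (log scale) of the 12 most abundant circles in each library, DHT in red and oil in blue; short vertical lines are group means. Points of the groups are apart for Tulp4, Rps6kc1 and Gm21992, where DHT is higher, and for Rnf169, where DHT is lower.

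Among circles with at least 60 reads, the highest shares after that of Cdr1os belonged to Gm11855 (82.4%, 89 reads) and 4933406I18Rik (73.0%, 192 reads). Each was the only circle listed for its host, and the hosts' linear levels averaged 0.528 and 0.671 FPKM. Cdc14b (67.5%, 420 reads), Trpc6 (65.5%, 777 reads), the pseudogene Nlrp5-ps (65.1%, 381 reads), Gigyf2 (64.5%, 876 reads) and Elf2 (64.4%, 443 reads) followed. Trpc6, a receptor-operated cation channel, gave 170, 109 and 109 reads with DHT and 114, 169 and 106 with oil, yet its share stayed between 62.0% and 68.3%. Nlrp5-ps varied more, with shares of 78.1%, 52.1% and 69.4% against 64.0%, 60.3% and 64.2%. Over the 317 circles listed in all 6 libraries, the share of a circle had a median SD between libraries of 4.65 percentage points.

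At the synapse, 4 circles came from 3 presynaptic genes. Rims2, an active zone scaffold, gave the circle at chr15:39566943-39616510, with 205, 190 and 214 reads with DHT, 191, 155 and 140 with oil, and a share of 61.6%. It was 62.1% of the reads of 34 circles listed for that host. Its paralogue Rims1 had 122, 77 and 97 reads against 69, 81 and 53, with a share of 13.8%. The priming factor Unc13b gave 2 small circles that share an end, with 34 and 22 reads. The smaller had 0, 0 and 3 reads with DHT and 5, 8 and 6 with oil. This smaller circle would not have passed the read limits without its oil reads. Its separation of the groups, at few reads, is therefore no support for a change. The larger had 0, 6 and 12 reads against 0, 7 and 9.

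Postsynaptic genes supplied 3 circles. Homer1, whose product links glutamate receptors to the scaffold, gave 108, 91 and 99 reads with DHT and 87, 65 and 65 with oil, or 2007 ± 168 against 1576 ± 189 normalised reads (SD, n = 3). DHT libraries were above oil libraries without overlap, and the log2 fold change was 0.35 with a standard error of 0.20 (edgeR, unadjusted p = 0.106). Its share was low, at 11.7%. Anks1b, a gene for a postsynaptic density protein, gave circles of 811 and 411 reads that ended at the same exon, with shares of 35.3% and 22.1%, and both overlapped between groups.

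In 4 channel and receptor genes (Unc79, Slc8a1, the potassium channel gene Kcnt2 and the kainate receptor gene Grik1) the circles had 36 to 1537 reads. Of 4 adhesion and guidance genes, Fat3 and the guidance receptor gene Robo1 had the most, with 1402 and 279 reads, and Fat1 and Dcc had 117 and 66. Log2 fold changes were above 0 for all 4 of the latter group, from 0.12 to 0.40, and none was called. Among the 389 circles tested here, 47.8% were above 0. The 4 circles from the list of ubiquitin genes, which did not count Ttc3, included Herc4, with 30, 26 and 18 reads with DHT and 18, 14 and 11 with oil. Its level was 493 ± 86.8 against 311 ± 55.1 normalised reads (SD, n = 3) without overlap, as found for 11.1% of all circRNAs tested.

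Genes of chromatin and transcription, the longest list with 158 genes, gave 30 circles from 22 hosts. Of 27 tested, 11 had a log2 fold change above 0 and 16 below, with a median of -0.11, beside 186 and 203 and a median of -0.04 over all 389 tested here. After Tulp4 its most abundant circles were those of Zfp532 (522 reads), Tcf20 (503 reads) and Crebrf (500 reads). The Chd9 circle, of a chromodomain helicase, whose acceptor is printed above, had 97, 59 and 51 reads with DHT and 49, 43 and 45 with oil. DHT libraries were higher without overlap, at 1373 ± 379.6 against 999.8 ± 63.5 normalised reads (SD, n = 3), and Chd9 was named after its values were seen. Groups did not overlap for 11.1% of all circRNAs tested.

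RNA-binding proteins were hosts of 6 circles. Gigyf2, which acts in translational repression, had 172, 161 and 145 reads with DHT and 141, 120 and 137 with oil. Hnrnpu, a nuclear RNA-binding protein, had 134, 101 and 99 against 89, 111 and 142. Pan3, of the deadenylase complex, had 51, 31 and 34 against 27, 37 and 16. All overlapped between groups.

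Kinases and phosphatases gave 18 circles, of which 8 of 15 tested were above 0 in log2 fold change, beside 47.8% of the 389 circles tested here. Hipk3, a nuclear kinase gene whose single long exon is a well-known source of a circle, had 87, 66 and 76 reads with DHT and 68, 82 and 59 with oil, and a share of 26.7%. Ptk2, focal adhesion kinase, had 35, 37 and 32 against 24, 22 and 24. That is 700.5 ± 46.9 against 512 ± 47.2 normalised reads (SD, n = 3), with no overlap, as found for 11.1% of all circRNAs tested. Regulators of small GTPases gave 20 circles, led by Dennd1b (671 reads) and Arhgap10 (485 reads). The list of cytoskeletal and motor genes gave 19, among them Ppp1r9a (735 reads). It also counted Ttc3 (913 reads), whose place in that list was a choice made here. Neither set had a circle called. Genes often reported as circle hosts, a list partly overlapping the others, gave 20 circles with 40302 reads and a median share of 35.0%. In this list 13 circles had a log2 fold change above 0 and 7 below, beside 47.8% above 0 among the 389 circles tested here and 50.4% of all circRNAs tested. No list holds 349 of the 464 circles.

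Of the 386 hosts, 324 gave 1 of these circles, 51 gave 2 and 11 gave at least 3. Zfp644 gave 4 circles that combined 2 left and 2 right ends in all ways, with 294, 209, 128 and 64 reads. Their shares were 24.9%, 14.4%, 12.9% and 11.5%. Cdc14b and Cdk8 also gave 4 each, and in both genes a single circle held most reads, 79.4% and 71.3% of all circles listed for the host. Cdk8, the Mediator kinase, had 44, 29 and 29 reads with DHT and 32, 22 and 18 with oil for that circle. Esco1, an acetyltransferase gene for cohesin, and Zfp532 gave 3 each.

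An end was shared with another of these circles in 104 cases, so such circles use a common splice site and are not separate observations. Most of a host's listed circle reads belonged to one of these circles in 330 of 464 cases, with a median of 74.2%, and 99 were the only circle listed for the host. In 28 cases a single library held most of a circle's reads. All of these but the Ppp1r9a circle had at most 18 reads.

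Positions in the host gene, which the rule did not use, are given beside those of the 2752 circles of the same span with a lower share. Host bounds from RefSeq contained 451 of the 464 circles. Their upstream end lay at a median of 37.4% of the gene's length, 37.5 kb from the start, against 48.6% and 52.5 kb for 2720 lower-share circles. The first 25% of the gene's length held 29.9% of the upstream ends against 20.3%. Host genes had a median length of 109 kb against 126 kb. Circles share hosts and ends, so no test was made of these differences.

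**Figure D3:**
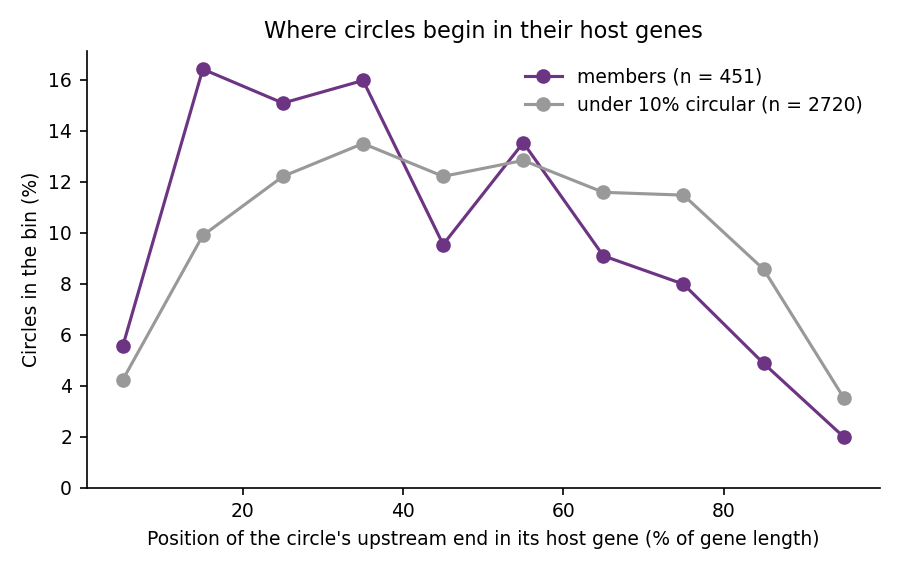
Percent of circles whose upstream end falls in each 10% of the host gene's length, for 451 circles described here (members, purple) and 2720 circles of the same span with a share under 10% (grey). The purple line is higher up to 40% of the gene and lower beyond 60%.

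Hosts had a median linear level of 2.83 FPKM (428 circles matched) against 8.02 FPKM (2626 matched). Linear reads enter the share, so this difference is tied to the rule. All 6 libraries listed 68.3% of these circles and 32.6% of the lower-share circles, whose median number of reads was 22.

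Linear transcripts that skip exactly the exons of a circle were looked for in the deposited splicing events. An event with the same ends was found for 48 of 464 circles (10.3%), against 85 of 2752 lower-share circles (3.09%). Among other exonic circles with at least 10 reads, it was found for 10.6% of 284 under 1000 bases and 0.832% of 481 over 50000 bases. In the matched events the skipping form was a median of 2.98% of the included plus skipping FPKM (80 events), against 32.9% over 26762 skipping events of all genes. Whether such events were detected depends on assembled transcripts, and no test was made.

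Rims2 stood out in these events: the form that skips the 3 exons of its circle made up 92.1%, 90.8% and 80.5% of FPKM with DHT and 92.8%, 80.5% and 84.0% with oil. Included and skipping forms averaged 1.57 and 10.3 FPKM. In the paralogue Rims1 the skipping form pooled to 16.0%, with 19.0 FPKM included and 3.61 FPKM skipped. Thus the circle share, 61.6% in Rims2 and 13.8% in Rims1, and the skipped share were both higher in Rims2, an observation on 2 genes. The skipping form was also over 80% for the smaller Ttc3 circle (99.4%, circular share 11.4%) and for the Zfp532 circle of 147 reads (81.6%, circular share 15.3%). It was under 1% for Cdr1os (0.639%, circular share 94.4%) and Homer1 (0.0152%, circular share 11.7%). High and low circular shares thus each occurred at both high and low skipped shares. For Tulp4 the included form was listed at 0 in every library.

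The comparison of DHT with oil, the question of the study's design, called none of the 389 circles tested (at least 20 reads) at an adjusted p under 0.05 in edgeR's quasi-likelihood test, where 0.0% of all 2524 circRNAs tested were called. DESeq2 also called 0. The smallest adjusted p was 0.996. In data simulated with the spread of all 2524 circRNAs (coefficient of variation 0.41 between libraries), the level test recovered 2 of 66 3-fold changes. The 389 circles tested here had a smaller spread, 0.28, and recovery at that spread was not simulated. The absence of calls therefore does not show that levels were equal. At an unadjusted p under 0.05 there were 14, or 3.60% of those tested, against a background of 3.13%. Of these, 3 were higher with DHT (background 1.55%) and 11 lower (background 1.58%), a share of 0.771% and 2.83%. DESeq2 gave 10 at that threshold, with a background of 2.89%. By the rule stated for the series, 2-fold with unadjusted p under 0.05, there were 3 higher (background 1.27%) and 4 lower (background 0.99%), or 1.80% of those tested beside 2.26% of all. The groups did not overlap for 46 circles, 11.8% beside 11.1% of all tested. Of these, 19 were above (background 5.74%) and 27 below (background 5.31%). Log2 fold changes were above 0 for 186 circles, 47.8% beside 50.4% of all.

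**Figure D4:**
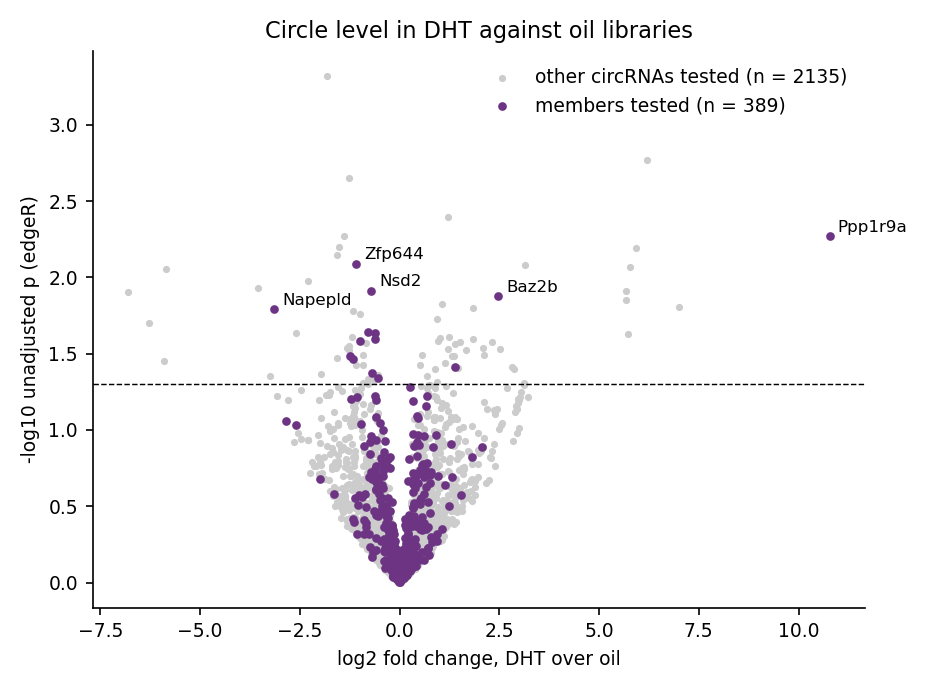
Log2 fold change of circle level (DHT over oil) against the negative log10 of edgeR's unadjusted probability for 389 circles described here (members, purple) and the other circRNAs tested (grey), with a dashed line at 0.05. The 5 purple points highest on the axis are named, and 14 purple points lie above the line. The fitted place of Ppp1r9a rests on 1 library and is no measure of its change.

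The smallest p among circles higher with DHT was that of Ppp1r9a, which encodes the actin-binding spine protein neurabin. This circle, at chr6:5045936-5083106, had 735 reads in DHT library 1 and was not listed in the other 5, so its values rest on a single library and no fold change is given. Its linear reads in that library numbered 748. Baz2b, a bromodomain gene, gave 16, 11 and 5 reads with DHT and 3, 2 and 0 with oil. It passed the read limits only through its DHT reads, so no fold change is given and its separation of the groups, at few reads, is no support. Dnajc1, a cochaperone of the endoplasmic reticulum, gave 17, 23 and 6 reads against 10, 3 and 3, and these overlapped. The shorter Sergef circle (chr7:46614618-46635556) gave 34, 59 and 44 against 41, 23 and 16, while the longer one that shares its right end, described above, had a log2 fold change of -0.08. Tulp4 and Gm21992 completed the 6 smallest.

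Circles lower with DHT were led by 1 of the 4 from Zfp644, at chr5:106634831-106666845, with 17, 16 and 10 reads with DHT and 40, 20 and 25 with oil. That is 286 ± 58.2 against 615 ± 194 normalised reads (SD, n = 3), a log2 fold change of -1.09 with a standard error of 0.35 (edgeR, unadjusted p = 0.00812, adjusted p = 0.996). Its circular share was under 10% in each DHT library, so the rule kept this circle only through its oil libraries. The other 3 circles of Zfp644 had log2 fold changes of -0.43, -0.02 and -0.30, and the host's linear FPKM one of 0.75 (limma, unadjusted p = 0.103).

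Nsd2, a histone H3 methyltransferase, gave 2 circles that begin at the same base, 33843112 on chromosome 5, and both were lower with DHT in every library. The one that ends at 33868878 had 33, 28 and 24 reads against 50, 37 and 41, and the one that ends at 33846267 had 62, 69 and 35 against 81, 78 and 75. Log2 fold changes were -0.71 (standard error 0.24) and -0.62 (standard error 0.24), and the second was -0.41 without DHT library 3. Their shares were lower as well without overlap, at 17.6%, 14.2% and 14.8% against 28.6%, 19.5% and 24.3% for the first. The linear FPKM of Nsd2 had a log2 fold change of -0.07.

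Acaca, acetyl-CoA carboxylase of fatty acid synthesis, had 15, 18 and 22 reads with DHT and 31, 32 and 26 with oil, a log2 fold change of -0.79 with a standard error of 0.31. Its share, 10.6%, 11.9% and 16.7% against 19.9%, 17.5% and 19.0%, was lower without overlap. The circle of Zdhhc21, a palmitoyltransferase gene, had 70, 46 and 35 against 79, 65 and 67, a log2 fold change of -0.61 with a standard error of 0.24. Napepld, which makes N-acylethanolamines, had 0, 3 and 0 against 4, 11 and 12, and it passed the read limits only through its oil reads.

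The circular share was tested for the 317 circles listed in every library, as the change of circular relative to linear reads. None was called at an adjusted p under 0.05 (edgeR), as for all 1581 circRNAs tested (0.0%). At an unadjusted p under 0.05 there were 13, or 4.10%, against 5.0% of all, with 4 higher (background 2.66%) and 9 lower (background 2.34%). Groups did not overlap for 36, which is 11.4% beside 9.99%, with 16 above (background 5.76%) and 20 below (background 4.24%). Log2 changes were above 0 for 167 circles and below 0 for 150, that is for 52.7% beside 52.2% of all.

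The circle of Rprd1b, a gene for a regulator of RNA polymerase II, had shares of 37.9%, 47.1% and 42.9% with DHT and 35.0%, 33.7% and 20.2% with oil. Its level overlapped between groups, with 33, 40 and 39 reads against 36, 35 and 23. For Egfem1 the shares were 18.7%, 20.6% and 20.7% against 10.7%, 17.8% and 7.83%. Dnajc1 and the shorter Sergef circle were the other 2 with the smallest p among higher shares. Zfp644 had the smallest p among lower shares, at 8.59%, 8.99% and 7.63% against 23.8%, 11.5% and 17.9%, a log2 change of -1.19 with a standard error of 0.40 (edgeR, unadjusted p = 0.00388, adjusted p = 0.825). Minar1 had 16.3%, 19.4% and 7.41% against 47.5%, 29.4% and 23.1%, also without overlap, from 51 junction reads in all. Fam53b had 6.58%, 11.9% and 4.40% against 17.4%, 10.9% and 14.4%. Over all libraries its share was 10.4%, close to the 10% limit, and its DHT shares lay on both sides of that limit. The circle of Wdr49 had 27 junction and 7 linear reads in all, so its shares of 40.0% to 100% rest on a few reads.

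**Figure D5:**
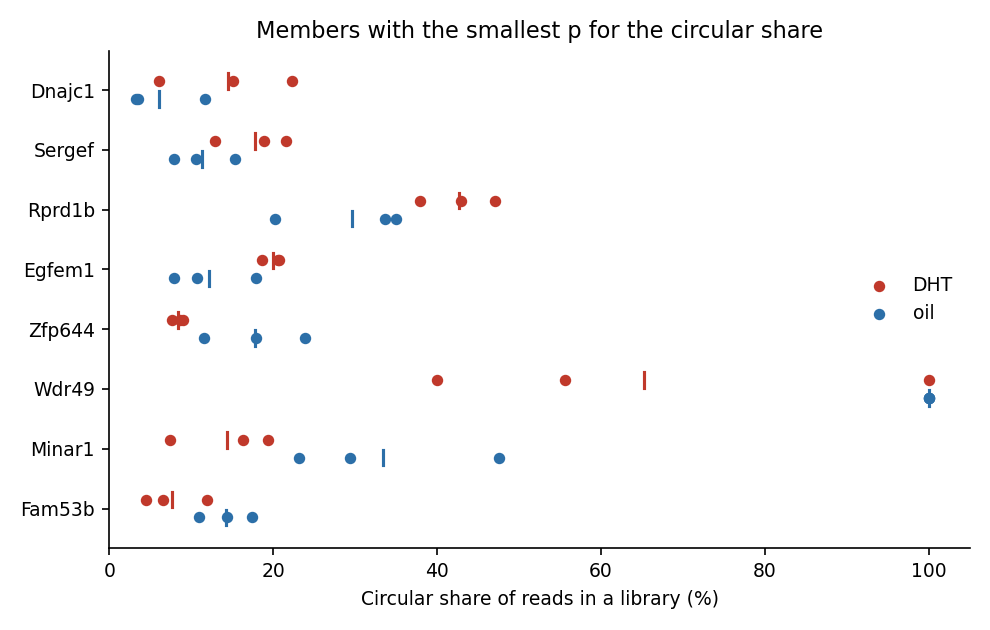
Circular share in percent in each library for the 4 circles (members) with the smallest p in each direction, DHT in red and oil in blue; short vertical lines are group means. The groups are apart for Rprd1b, Egfem1, Zfp644 and Minar1 and overlap for Dnajc1, Sergef, Wdr49 and Fam53b.

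Linear levels of the hosts came from the FPKM tables, which matched 361 hosts of 428 circles. Of 332 hosts tested with limma on log2(FPKM + 0.5), 0 were called at an adjusted p under 0.05, against 0.0176% of 11368 genes. At an unadjusted p under 0.05 there were 17 hosts, 5.12% beside 7.34% of all genes, with 7 higher with DHT (background 5.79%) and 10 lower (background 1.55%). Groups did not overlap for 46 hosts, 13.9% beside 15.1%, with 25 above (background 12%) and 21 below (background 3.15%). Log2 fold changes were above 0 for 55.1% of hosts and for 63.6% of all genes. With each library centred on its median, they were above 0 for 42.5% of hosts, and 2 were higher and 18 lower at an unadjusted p under 0.05. The matching values over all genes are not given, and the backgrounds above, without centring, do not apply to these counts.

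Hosts with the smallest p upward were Zfp536, Fars2, Maml3 and Rims1, and downward Arhgap18, Gigyf2, Slc25a26 and Zfp955a. Rims1 had 70.1, 48.2 and 44.4 FPKM with DHT and 40.3, 39.3 and 36.9 with oil, a log2 fold change of 0.45 with a standard error of 0.18 on the log2(FPKM + 0.5) scale. DHT library 1 set much of that value, which was 0.25 without it. Its circle had a log2 fold change of 0.43 with a standard error of 0.23, and its circular share overlapped between groups. Gigyf2 had 6.27, 4.36 and 4.90 FPKM against 8.83, 7.85 and 6.46, a log2 fold change of -0.54 with a standard error of 0.17 (limma, adjusted p = 0.655). The Gigyf2 circle was not lower, with 3213 ± 34.4 normalised reads with DHT and 2909 ± 312 with oil (SD, n = 3). Gene FPKM and circle reads are on different scales, and the difference between the changes was not tested.

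Summed over all 464 circles, the level relative to all junction reads was 33.9 ± 0.966% with DHT and 33.1 ± 0.861% with oil (SD, n = 3), and the groups overlapped. Without the Ppp1r9a circle the DHT value was 33.5 ± 0.301%. Per 1000000 mapped reads the circles had 103.4 ± 5.26 reads against 97.0 ± 4.08. The median share over the 317 circles listed in all libraries was 18.1 ± 0.972% against 17.2 ± 0.605%.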

How the data were processed

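Per the labels' protocols, circRNA abundance was normalised as SRPBM, spliced reads scaled to mapped reads, and the series' design names DESeq2 1.6.3. Per the submitters' processing notes, the tools were BWA, HISAT2 2.0.1, cutadapt and bcl2fastq 2.17.1.14, with mm9 as build. The counting of linear reads is not given in the sources used. The deposited circRNA lists give whole-number counts of back-splice and linear reads and the SRPBM score, listing circles with at least 2 reads. Mapped reads were recovered from count and score. The deposited FPKM tables give values per splicing event, made by the authors. A gene's FPKM was taken as the larger of its summed first-exon and summed last-exon events.

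A circle not listed in a library counted as 0. For levels, edgeR 4.0.16 with TMM scaling and its quasi-likelihood test was run over all circRNAs with at least 20 reads. Shares were tested with edgeR on circular and linear counts with a term per library. Standard errors from edgeR for level and share were derived from its F statistic, as the absolute log2 change divided by the square root of F. Host FPKM was tested with limma 3.58.1 on log2(FPKM + 0.5) over genes of mean at least 0.5. All p-values were adjusted by Benjamini-Hochberg over all features tested. The code was tested on simulated data with known changes. Of 67 changes of 2-fold, 0 were recovered for level, 15 for share and 36 for hosts. DESeq2 1.42.0 and other filters, scalings and left-out libraries were alternatives. The labels give no batch and no replicate numbers, and libraries are numbered in accession order.

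Named were the 12 circles with most reads, the 8 highest shares with at least 60 reads, the 6 smallest p in each direction for level and 4 for share and host, the hosts with most circles, those beside each limit and up to 4 per list; 1 host that this rule names is not reported here. The members, lists and tests were chosen with earlier results of these data known.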

Additional observations from a re-analysis of the deposited data

How the results depend on the processing

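No paired analysis was possible because the labels give the groups no shared replicate numbers. In levels, 1 circle, that of Ppp1r9a, was called with at least 6 reads or with no filter in edgeR, from a single library. Without DHT replicate 1 that circle had no value. In shares, 1 circle, that of Wdr49, was called by limma on the log ratio over circles listed in at least 2 libraries of each group (-2.59, adjusted p 0.0276). The calls of level, share and host stayed at 0 to 0 with each library left out. The summed level, 2.44% higher with DHT, was 6.55% higher per mapped read, 1.63% without the Cdr1os circle, 1.10% without the Ppp1r9a circle (chosen after seeing the data) and 0.814% to 3.68% higher with each library left out. At unadjusted p under 0.05, circles higher and lower in level ranged from 2 to 6 and 4 to 13 with each library left out, in share from 4 to 9 and 3 to 11, and hosts from 6 to 10 and 4 to 12. By the series rule they ranged from 0 to 5 and 2 to 7. Circles higher in level numbered 3, but 5 with DESeq2 size factors, with mapped reads as library size or with at least 6 reads, and 7 with no filter. The 11 lower were 7 with DESeq2. The 4 lower by the series rule were 2 with DESeq2 and 1 with at least 60 reads. In share, limma gave 10 higher in place of 4, and 16 higher and 14 lower over the wider set. At least 60 reads left 5 lower in place of 9. Hosts higher were 13 with no filter, and hosts lower were 5 with a mean of at least 2 FPKM. Of 297 alternative values for 28 named changes in level, share or host FPKM, 0 reversed in direction. These changes were chosen by the smallest p in the same libraries, so this is no independent support for them. The 75 circles under 20 reads were too shallow to enter the level test. A share limit of 0.05 kept 1010 circles and of 0.2 kept 168.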

Other observations

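Some spans hold other annotated features. A start window of the host in RefSeq's table lies inside 8 of the circles' spans, those of Tulp4, Phf21a, Acaca, Lin28b, Ndst3, Fam53b, Hmgxb4 and 2700054A10Rik. These are not the outermost starts for the 7 hosts with RefSeq bounds. The Tulp4 circle, for example, begins 30958 bases downstream of the start of the whole gene. Their reads ranged from 19 (Hmgxb4) to 3717 (Tulp4). Mir361 lies within the span of the Chm circle (20 reads, share 10.7%) on the same strand, and Mir669n lies within that of Slc30a7 (41 reads, share 18.4%) on the opposite strand.

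Genes known to act on circle formation or turnover were measured as linear FPKM. Of 38 found, 35 were tested with limma and 0 were called. At an unadjusted p under 0.05, 1 was higher and 2 were lower with DHT, beside 5.79% and 1.55% of all genes tested, and these are named after their values were seen. The RNA helicase gene Dhx9 had 6.67 ± 0.323 FPKM with DHT and 9.65 ± 1.53 with oil (SD, n = 3), without overlap. Ythdf2, which encodes a reader of methylated RNA, had 3.44, 3.60 and 3.21 against 2.19, 1.20 and 1.53. Rbm25 was the other lower gene.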
